A study of Mus musculus with 7 samples.

Results

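The Notch receptors Notch1, Notch2 and Notch3, the ligands Dll1, Jag1 and Jag2, the target genes Hes1, Hey1 and Heyl and the inhibitor Numb were followed in mouse plantaris muscle. These 10 genes of 18193 were taken by symbol, through 19 of 34945 probe sets that the platform annotation assigns to a single gene, and the brightest probe set, by mean level over the 7 arrays, stands for each gene. All mice were Pax7-DTA, from the parental strains Pax7-CreER and Rosa26-DTA, and 4 months of age. The 4 groups were tamoxifen overload (3 arrays: replicates 1 and 2 male, replicate 3 female), vehicle overload (2 arrays: replicate 1 female, replicate 2 male), tamoxifen sham (1 array, male) and vehicle sham (1 array, male). Overload means 1 week after synergist ablation, an operation that removes the muscles sharing the work of the plantaris. Tamoxifen activates a Cre recombinase made in Pax7-expressing cells, which then make diphtheria toxin, and the labels describe the tamoxifen muscle as without satellite cells and the vehicle muscle as with them. Every group carries both alleles, so an effect of tamoxifen itself and one of satellite cell loss cannot be told apart. The sample titles read as single mice, whereas the series' design text speaks of pooled muscle, so the number of animals per array is not settled, and p-values measure the spread between these arrays.

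Notch signalling passes between touching cells. A ligand of the Delta or Jagged family on one cell binds a Notch receptor on its neighbour, the receptor is cut by ADAM proteases and then by gamma-secretase, and the freed intracellular part joins the DNA-binding protein Rbpj in the nucleus to switch on genes such as Hes1, Hey1 and Heyl, which encode transcriptional repressors. In skeletal muscle the pathway is known for keeping satellite cells, the muscle stem cells, quiescent and for holding back differentiation, with Numb as an antagonist in dividing progenitors. It also acts in blood vessel walls, where Notch3 and Heyl are typical of mural cells.

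Promoter windows of the RefSeq table (build GRCm38.p6, 250 bases before to 50 bases after a transcript start) were found for 7 of the 10 genes, and those of Notch2 and Jag1 are shown because these receptor and ligand genes were the members that rose with overload. The window of Notch2 lies at chr3:98013288-98013587 on the plus strand and that of Jag1 at chr2:137116471-137116770 on the minus strand. Both are written 5′ to 3′ in the direction of transcription, with capitals for a motif match.
Notch2: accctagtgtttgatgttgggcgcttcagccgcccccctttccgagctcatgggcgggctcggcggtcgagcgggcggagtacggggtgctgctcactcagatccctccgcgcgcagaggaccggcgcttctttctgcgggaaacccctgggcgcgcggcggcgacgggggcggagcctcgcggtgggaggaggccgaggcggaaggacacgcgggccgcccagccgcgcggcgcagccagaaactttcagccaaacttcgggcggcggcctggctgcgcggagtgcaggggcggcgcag
Jag1: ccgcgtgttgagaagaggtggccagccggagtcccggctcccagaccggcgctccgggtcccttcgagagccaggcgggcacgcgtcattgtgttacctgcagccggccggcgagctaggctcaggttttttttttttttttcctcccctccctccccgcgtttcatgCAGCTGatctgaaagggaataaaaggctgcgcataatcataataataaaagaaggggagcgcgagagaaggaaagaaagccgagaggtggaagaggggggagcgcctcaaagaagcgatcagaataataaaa
Of 4 motifs searched on both strands, the Rbpj core TGGGAA, the TEAD core GGAATG and the AP-1 site TGANTCA had no match in either window, and the E-box CAGCTG had 1 match, at position -82 of Jag1. The Rbpj and TEAD cores can overlap each other. Over all 32851 windows of this length in the table, 25.6% held TGGGAA, 14.7% GGAATG, 7.81% TGANTCA and 16.3% CAGCTG. A missing match says only that these letters are not in the window.

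Values are the deposited signals, and differences are on the scale of log2(signal + 1). All brightest probe sets of the 10 genes lay above the background level of 53.6 (the 95th percentile of 77 olfactory, vomeronasal and taste receptor genes) on all 7 arrays. Pax7, the gene whose cells the toxin targets, had signals of 57.9, 9.97 and 120 on the tamoxifen overload arrays, against 274 and 349 on the vehicle overload arrays. Its sham signals were 41.2 with tamoxifen and 92.8 with vehicle. Tamoxifen overload replicates 1 and 3 thus read above background, and replicate 3 above the vehicle sham array. The muscle label was checked with 6 myofibre genes, whose summed signal was 160300 to 205700 on overload arrays and 233500 and 246400 on sham arrays. Ckm (muscle creatine kinase) alone gave 24310 to 33943. With so few arrays the precision of every value is limited, and each sham group is 1 array, whose spread the fit takes from the overload groups.

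**Figure D1:**
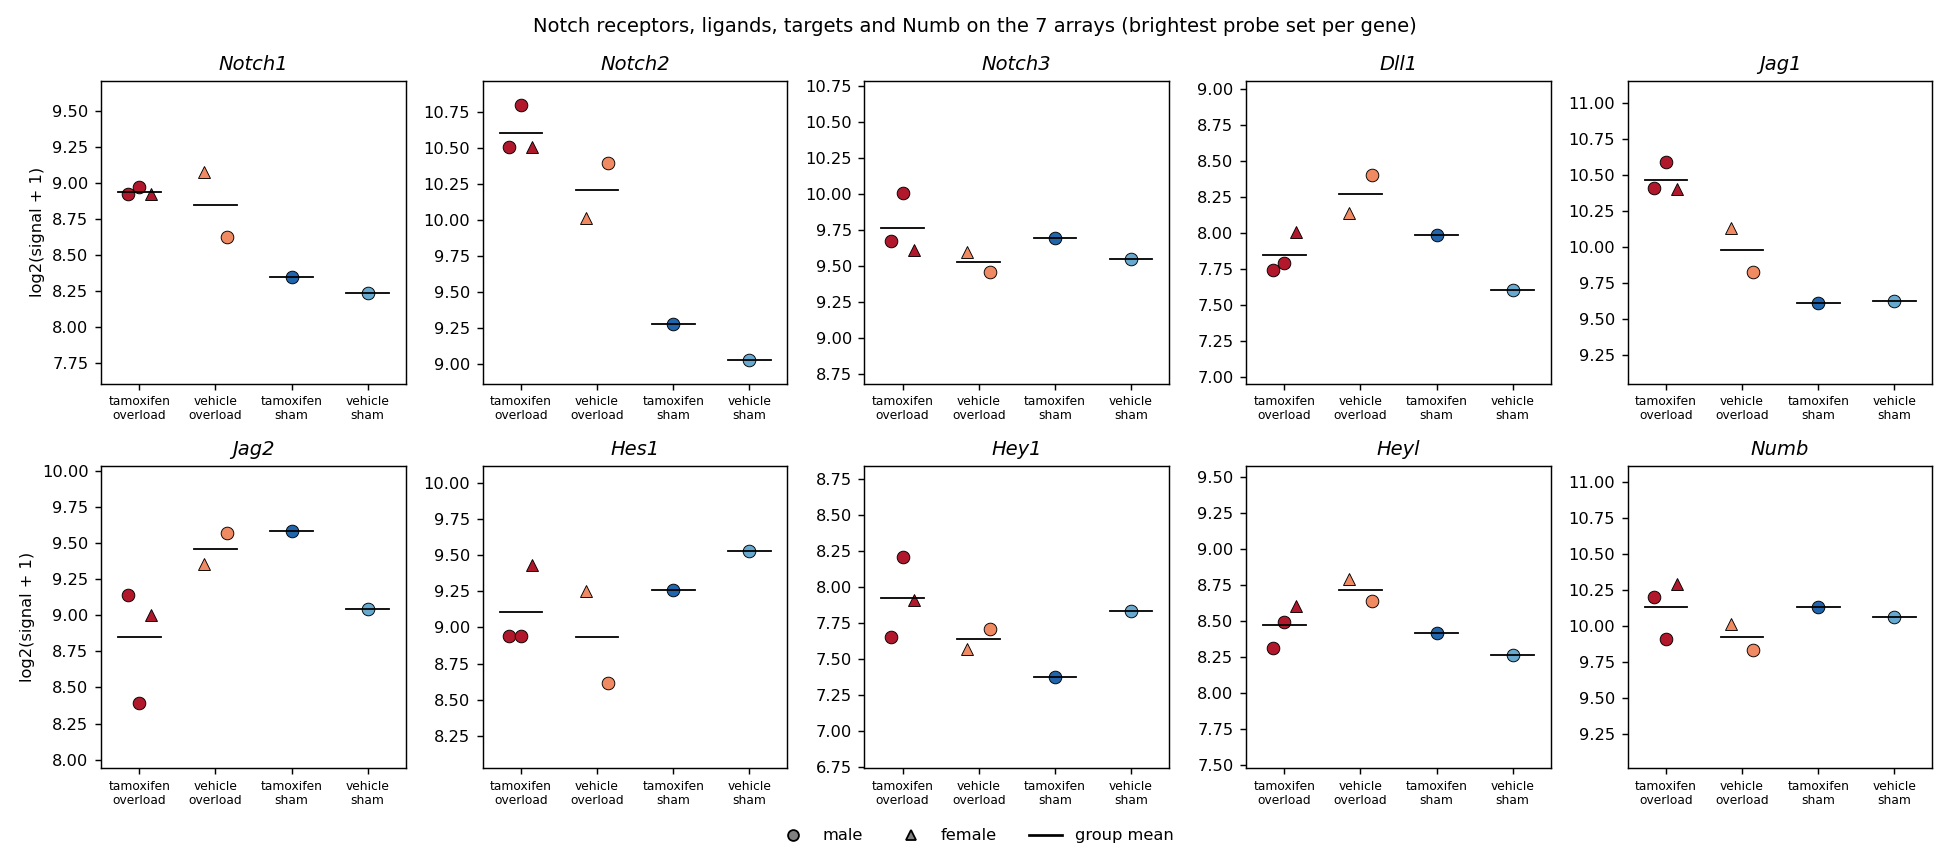
Levels of the 10 genes as log2(signal + 1) on each array, by group, with circles for male and triangles for female arrays and bars for group means (all panels span the same range of log2 units). All 5 overload arrays lie above both sham arrays for Notch1, Notch2 and Jag1, and the female arrays lie highest within each overload group for Hes1, Heyl and Numb.

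The first question was what 1 week of overload changed, averaged over both treatments (5 overload arrays against 2 sham arrays). Notch2 and Jag1 rose, Hes1 fell, and the other 7 genes did not pass the test. In limma's moderated test, with a gene called at an adjusted p under 0.05 over all genes, 2 of 10 members were called higher, where 14.7% of all genes were, and 1 of 10 lower, where 8.16% of all genes were. The median difference of the members was 0.19, against 0.07 for all genes. All 5 overload arrays lay above both sham arrays for 3 members, where 23.1% of all genes did so, and below both for 0 members, where 18.3% did. Centring each array on its median shifted differences by a median of -0.29 over all genes and left 1 member higher (Notch2) and 1 lower (Hes1), in place of 2 and 1. For all genes it turned 2678 higher and 1485 lower calls into 1740 and 2710.

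Among the receptors, Notch2 showed the clearest difference. Its signals were 1459, 1782 and 1458 on the tamoxifen overload arrays and 1034 and 1351 on the vehicle overload arrays, against 620.2 (tamoxifen) and 522 (vehicle) on the sham arrays. The groups did not overlap, and the lowest overload array was still well above the higher sham array. The difference was 1.36 ± 0.16 (log2, SE), a 2.56-fold rise (adjusted p = 0.00106), and it was called in 15 of 17 alternatives of processing (1.06 to 1.45, 1.06 with median centring). The 2 exceptions estimate the spread without its trend along intensity, by which 0 genes were called at all. Over all genes, 1752 had a larger difference than Notch2. The second Notch2 probe set was dim, at or below background on some arrays, and differed by 1.48 ± 0.48 (adjusted p = 0.067 over all probe sets). Its overload and sham arrays overlapped, with 19.2 on tamoxifen overload replicate 3 against 32.7 (tamoxifen) and 29.4 (vehicle) on the sham arrays. By the distance between mean-centred levels over the 7 arrays, the nearest profiles to that of Notch2 were those of Rusf1 (0.0935), Nes (0.0969) and Hebp1 (0.0993, root mean square in log2 units). Nes encodes nestin, an intermediate filament protein.

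Notch1, the receptor best known from satellite cells, had signals of 483, 501 and 485 on the tamoxifen overload arrays and 538 and 393 on the vehicle overload arrays, against 325 (tamoxifen) and 301 (vehicle) on the sham arrays. The 5 overload arrays lay above both sham arrays, but the difference of 0.52 ± 0.19 did not pass (adjusted p = 0.0906). It passed in 1 of 17 alternatives, the fit without a sex term (0.60, adjusted p = 0.0333). The second Notch1 probe set overlapped between the groups and differed by 0.06 ± 0.31. Notch3 read 816, 1028 and 781 on the tamoxifen overload arrays and 771 and 702 on the vehicle overload arrays, against 827 (tamoxifen) and 747 (vehicle) on the sham arrays. These values overlapped fully, with a difference of 0.05 ± 0.17 (95% interval -0.35 to 0.46) that turned to -0.24 with median centring and -0.06 without tamoxifen overload replicate 2. The brightest Notch3 probe set carries the suffix by which the manufacturer marks probes that may match related transcripts; the other one gave 0.36 ± 0.23 (adjusted p = 0.337).

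Of the ligands, Jag1 gave 1359, 1542 and 1356 on the tamoxifen overload arrays and 1120 and 909 on the vehicle overload arrays, against 783 (tamoxifen) and 788 (vehicle) on the sham arrays. All overload arrays were above the sham arrays, and those with tamoxifen were the highest. The difference was 0.57 ± 0.16, or 1.49-fold (adjusted p = 0.0349). A second Jag1 probe set moved by a similar amount (0.59 ± 0.18, adjusted p = 0.0557) and the dimmest one by 0.20 ± 0.26 (adjusted p = 0.657). The call was lost in 11 of 17 alternatives, among them median centring (0.28), quantile normalization (0.54) and fits without the tamoxifen sham array (0.32), without a vehicle overload array (replicate 1 0.55, replicate 2 0.74) or without tamoxifen overload replicate 2 (0.50) or replicate 3 (0.55).

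Dll1, the Delta-like ligand expressed by myoblasts, had signals of 214, 220.2 and 256 with tamoxifen overload and 281 and 337 with vehicle overload, against 252 (tamoxifen) and 194 (vehicle) with sham surgery. Jag2, the second Jagged ligand, had signals of 564, 336 and 513 with tamoxifen overload and 655 and 759 with vehicle overload, against 766 (tamoxifen) and 527 (vehicle) with sham surgery. In both genes the overload and sham arrays overlapped. Dll1 differed by 0.25 ± 0.23 and Jag2 by -0.18 ± 0.25 (adjusted p = 0.503 and 0.674). Neither direction was stable. Dll1 came to -0.15 without the vehicle sham array, 0.65 without the tamoxifen sham array, 0.04 without vehicle overload replicate 2 and -0.04 with median centring. Jag2 came to -0.75 without the vehicle sham array, 0.40 without the tamoxifen sham array and 0.04 without tamoxifen overload replicate 2. The second Jag2 probe set also overlapped between overload and sham arrays (-0.01 ± 0.20).

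Among the targets, Hes1, the repressor most directly induced by Notch in many cells, fell. It had signals of 491, 489.7 and 692 on the tamoxifen overload arrays and 610.01 and 392 on the vehicle overload arrays, against 613 (tamoxifen) and 738 (vehicle) on the sham arrays. The 2 female overload arrays (692 and 610.01) lay among or next to the sham arrays, which are both male, whereas the 3 male overload arrays (392 to 491) lay below them. With sex as a term in the fit the difference was -0.61 ± 0.16 (adjusted p = 0.0295). Without that term it was -0.37 (adjusted p = 0.262), and on male arrays alone -0.62 (adjusted p = 0.0504). The call was lost in 9 of 17 alternatives, including those without a vehicle overload array (replicate 1 -0.62, replicate 2 -0.55), without the female tamoxifen overload array (-0.62) and without either sham array (tamoxifen -0.87, vehicle -0.34).

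Hey1, a relative of Hes1, had signals of 200, 295 and 239 with tamoxifen overload and 189 and 208 with vehicle overload, against 165 (tamoxifen) and 226 (vehicle) with sham surgery. The overload and sham arrays overlapped (0.21 ± 0.26, adjusted p = 0.638), and the value turned with the sham array used, to 0.57 without the vehicle one and -0.16 without the tamoxifen one. It was -0.05 with quantile normalization and -0.08 with median centring. Heyl had 317, 359 and 387 with tamoxifen overload and 441 and 398 with vehicle overload, against 340.3 (tamoxifen) and 307 (vehicle) with sham surgery. Here, too, the groups overlapped (0.18 ± 0.19, adjusted p = 0.568), and the value was -0.01 without the vehicle sham array, 0.36 without the tamoxifen sham array and -0.11 with median centring. Its 3 probe sets disagreed. One of the dimmer ones gave 227, 216 and 305 with tamoxifen overload and 284 and 245 with vehicle overload, against 137 (tamoxifen) and 128 (vehicle) with sham surgery. It rose by 0.79 ± 0.22 (adjusted p = 0.0418 over all probe sets), a call that held with 2 of 15 alternatives and was lost when any array was left out (0.68 to 0.86) and with median centring (0.50). Which of the Heyl probe sets follows the transcript was not tested.

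Numb, which antagonises Notch by sorting the receptor for removal, had signals of 1178, 961 and 1252 with tamoxifen overload and 1036 and 915 with vehicle overload, against 1121 (tamoxifen) and 1069 (vehicle) with sham surgery. The arrays overlapped, with a difference of -0.15 ± 0.15 (95% interval -0.51 to 0.20).

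**Figure D2:**
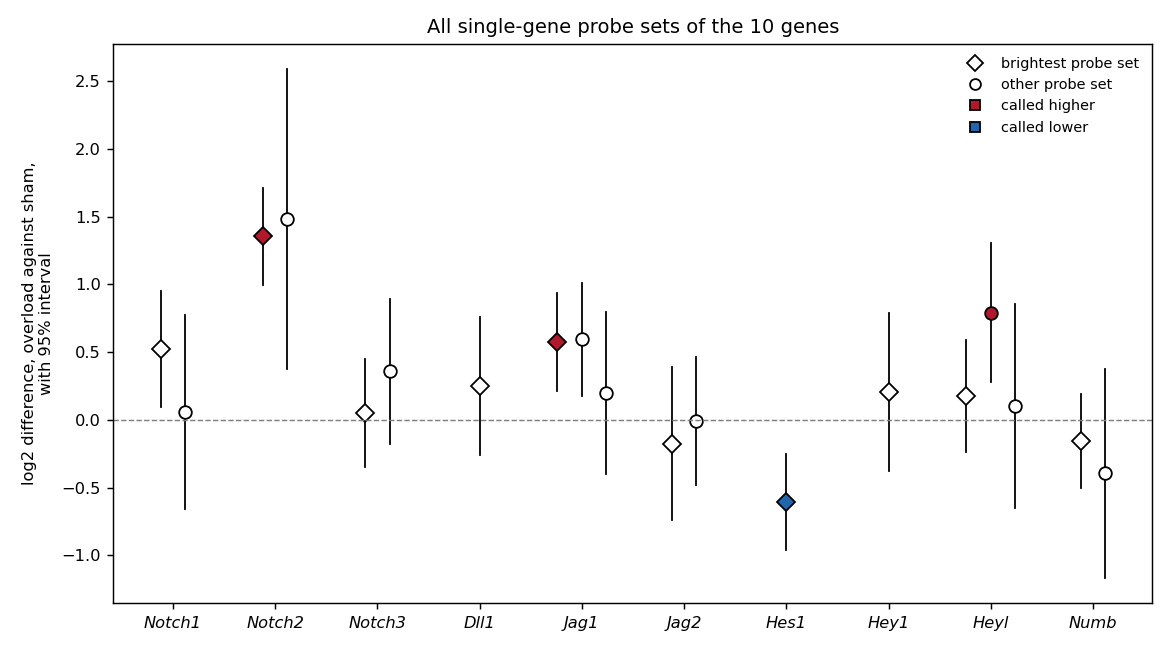
Log2 difference of overload against sham for all 19 probe sets of the 10 genes, with 95% intervals. Diamonds are the brightest probe set of each gene, red marks calls of a rise and blue calls of a fall over all probe sets. The called probe sets are the brightest ones of Notch2, Jag1 and Hes1 and a dimmer one of Heyl. The share of all probe sets called was not counted.

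**Figure D3:**
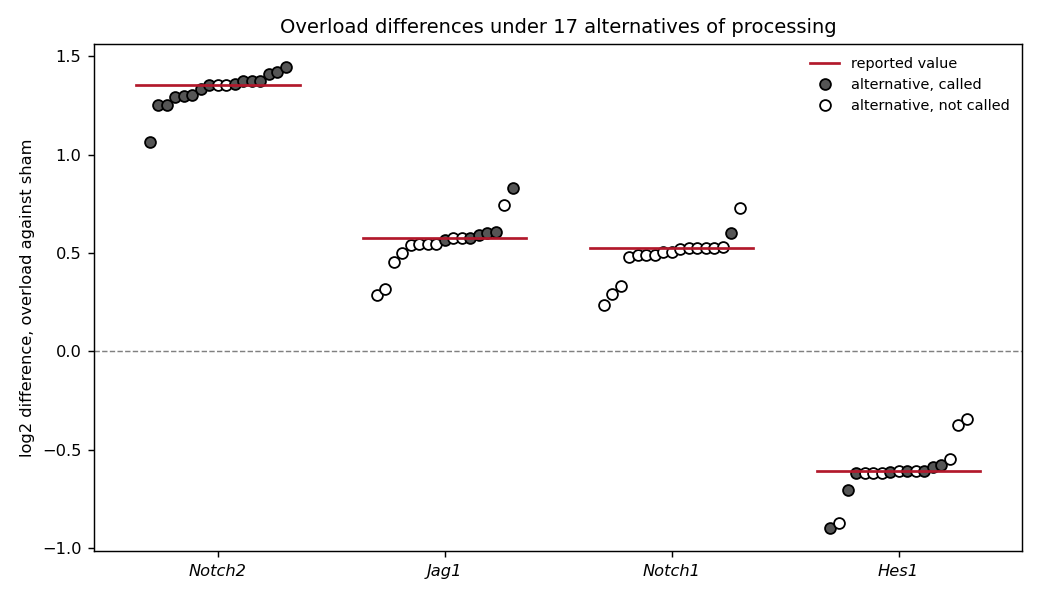
Log2 difference of overload against sham for Notch2, Jag1, Notch1 and Hes1 under 17 alternatives (points, filled where called) and as reported (red line). Notch2 was called in 15, Jag1 in 6, Notch1 in 1 and Hes1 in 8 of them, and none changed sign.

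Some lists of cell markers also moved with overload and others did not, and their part in the differences was not tested. In whole muscle, fewer cells of a type and less RNA per cell cannot be told apart. All 7 macrophage markers rose, with a summed signal of 11090 to 21230 on overload arrays against 3163 and 4760 on sham arrays. Among 7 markers of fibroblasts and fibro-adipogenic progenitors, 6 rose, with sums of 94560 to 119000 on overload arrays against 34950 and 44790 on sham arrays. Of 8 endothelial markers 0 rose and 1 fell, with overlapping sums (5082 to 8606 on overload arrays, 5531 and 6440 on sham arrays). Pecam1 differed by 0.44 ± 0.18 and Cdh5 by -0.08 ± 0.31, neither of which passed, and the marker that fell is not among those named. Of 8 pericyte and smooth muscle markers 2 rose, with sums of 29270 to 35750 on overload arrays and 34050 and 34450 on sham arrays. Such sums follow the brightest genes of a list, and Rgs5 alone gave 10567 to 13932 on overload arrays and 15003 and 16136 on sham arrays. Pdgfrb, the platelet-derived growth factor receptor that fibroblasts share, was 1 of the 2 that rose (1.02 ± 0.17). The other is not among the markers named. Rgs5 (-0.40 ± 0.15) and Myh11 (-0.58 ± 0.24) did not pass. Of 7 satellite cell markers 2 rose (sums of 18890 to 26210 on overload arrays, 19800 and 22820 on sham arrays), and of 3 measured Schwann cell markers 1 fell. Mean log2 levels of the satellite cell list, which includes Des (desmin), were 7.63 to 9.52 with overload and 7.40 and 8.14 with sham surgery. Of 4 measured T, B and NK cell markers 0 passed, with summed signals of 64.8 to 181 on overload arrays against 64.3 and 114 on sham arrays.

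Each treatment was then taken alone. With tamoxifen (3 overload arrays against 1 sham array) Notch2 rose by 1.41 ± 0.20 (adjusted p = 0.00458) and Jag1 by 0.83 ± 0.20 (adjusted p = 0.0317). Thus 2 of 10 members were called higher, where 9.98% of all genes were, and 0 lower, where 4.9% were. Jag1 kept this call in 9 of 15 alternatives. It was lost, among others, without tamoxifen overload replicate 2 (0.72) and with quantile normalization (0.81), averaged probe sets (0.65) or median centring (0.55). Jag2 did not pass (-0.75 ± 0.32), except without tamoxifen overload replicate 1 (-0.98). The second Jag2 probe set differed by -0.05 ± 0.26. With vehicle (2 overload arrays against 1 sham array) Notch2 rose by 1.30 ± 0.22 (adjusted p = 0.0127), a call lost without vehicle overload replicate 2 (1.13, adjusted p = 0.174). It was the 1 member called higher, where 6.35% of all genes were, and 0 were called lower, where 2.44% were. Hes1 differed by -0.87 ± 0.23 with vehicle (adjusted p = 0.0529) and by -0.34 ± 0.21 with tamoxifen (adjusted p = 0.32). The vehicle value passed without tamoxifen overload replicate 1 (-0.88, adjusted p = 0.044) and with median centring (-1.17, adjusted p = 0.0247). Jag1 differed by 0.32 ± 0.22 with vehicle (adjusted p = 0.447). The 2 treatments share 1 estimate of the spread, and a call with tamoxifen but not with vehicle is no test of a difference between them.

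The difference itself, the interaction of treatment and overload, was called for 0 of 10 members and 0% of all genes by limma (1 member and 1021 of 18193 genes had an unadjusted p under 0.05). For Notch2 it was 0.11 ± 0.29 (95% interval -0.55 to 0.77), for Jag1 0.51 ± 0.29 (-0.16 to 1.18) and for Hes1 0.53 ± 0.29 (-0.14 to 1.20). Without tamoxifen overload replicate 1 the interaction was called for 12 genes, none of them a member. Between the single sham arrays, tamoxifen over vehicle, the signal ratio of the 10 genes ran from 0.727 (Hey1) to 1.46 (Jag2), with no replicate and no test. Jag1 (783 with tamoxifen, 788 with vehicle) was nearly equal on these 2 arrays.

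Whether overloaded muscle labelled as without satellite cells differed from that labelled as with them was addressed by 3 tamoxifen overload arrays against 2 vehicle overload arrays. Pax7 itself was lower on all 3 tamoxifen arrays but did not pass (-2.67 ± 0.81, adjusted p = 0.399). No member was called in either direction, and neither was any gene (0% higher, 0% lower). By limma's unadjusted p under 0.05 there were 2 members, Jag1 and Jag2, and 1932 genes. Jag1 was higher by 0.50 ± 0.16 on the log2 scale (95% interval 0.14 to 0.87, adjusted p = 0.408) and Jag2 stood at -0.61 ± 0.25 (-1.18 to -0.04, adjusted p = 0.458). A second Jag1 probe set gave 0.64 ± 0.18 and a second Jag2 probe set -0.29 ± 0.20.

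All 3 tamoxifen arrays lay above both vehicle arrays for Notch2, Notch3 and Jag1 (3 of 10 members, where 16.9% of all genes did so) and below both for Dll1, Jag2 and Heyl (3 of 10, where 12.6% did). The lead of Notch2 rested on narrow gaps, 1458 for the lowest tamoxifen array against 1351 for the higher vehicle array, and its difference was 0.36 ± 0.16 (adjusted p = 0.474). The dim second Notch2 probe set overlapped and went the other way (-0.96 ± 0.48), and averaging the probe sets turned the Notch2 value to -0.30. The second Notch3 probe set overlapped too (0.06 ± 0.23), as did a dimmer Heyl one (-0.04 ± 0.22) and the dimmest Jag1 one (0.10 ± 0.26). Without tamoxifen overload replicate 1 the count over all genes came to 227, and leaving out any 1 array gave 0 members called. Dll1 stood at -0.42 ± 0.23, Heyl at -0.22 ± 0.19, Notch3 at 0.23 ± 0.17, Hey1 at 0.27 ± 0.26, Hes1 at 0.26 ± 0.16, Numb at 0.24 ± 0.15 and Notch1 at 0.12 ± 0.19. The summed macrophage signal was 14470 to 21230 on the tamoxifen arrays and 11090 and 11750 on the vehicle arrays, and 0 of those 7 markers were called. The summed satellite cell signal was 18890 to 23670 on the tamoxifen arrays and 24730 and 26210 on the vehicle arrays (0 of 7 called, median -1.09). The mean log2 level of this list, which weighs its genes alike, was 7.63 to 8.52 with tamoxifen and 9.15 and 9.52 with vehicle. The summed myofibre signal was 160300 to 193500 on the tamoxifen arrays and 200600 and 205700 on the vehicle arrays (0 of 6 called, median -0.16). The part of these lists in the members' values was not tested.

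**Figure D4:**
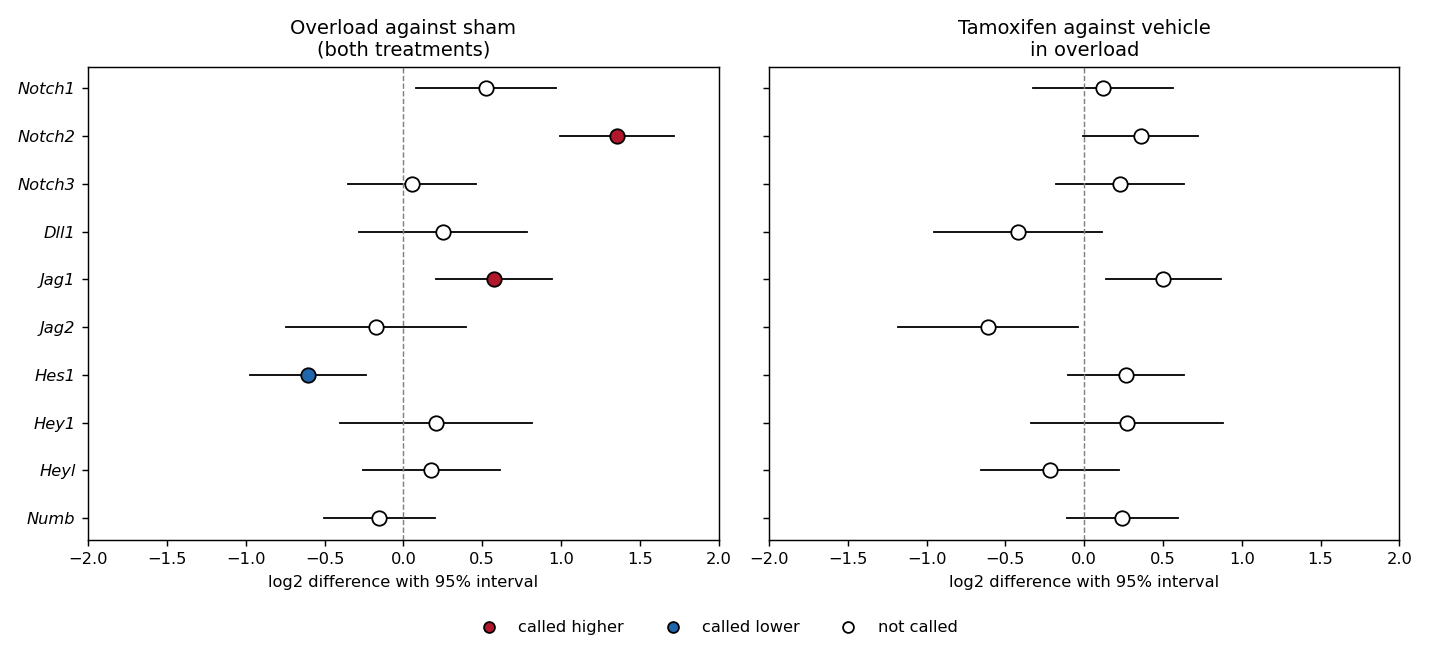
Log2 differences with 95% intervals for overload against sham (left) and for tamoxifen against vehicle in overload (right). Notch2 and Jag1 (red) were called higher and Hes1 (blue) lower with overload, and 0 of the 10 genes were called on the right.

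Female against male, estimated within the overload groups, was called for 0 of 10 members, where 0.0495% of all genes (9 of 18193) were called. Hes1 had the largest value among the members, at 0.56 ± 0.16 (adjusted p = 0.909). The female arrays read 692 with tamoxifen and 610.01 with vehicle. The male ones read 491 and 489.7 with tamoxifen and 392 with vehicle. Both female arrays thus lay above the 3 male ones, and how many of all genes show this was not counted. By their brightest probe sets the other 9 members differed by -0.25 to 0.21. The dim second Notch2 probe set differed by -1.37 ± 0.48 (adjusted p = 0.941, limma, over all probe sets), with both female arrays below the male ones.

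The rest of the pathway was described with 49 further genes, of which 46 were measured. With overload 5 of the 46 rose, where 14.7% of all genes did, and 2 fell, where 8.16% did, so that both shares lay below those of all genes. They had a median of 0.07, the same as over all genes to this precision; median centring gave 3 higher and 6 lower and a median of -0.23. Of 5 further ligands, Dlk1, a Delta-like protein without the usual receptor-binding domain, rose by 2.00 ± 0.28 (adjusted p = 0.00233). Its signals were 258, 359 and 418 with tamoxifen overload and 433 and 201 with vehicle overload, against 76.6 (tamoxifen) and 51.6 (vehicle, below background) with sham surgery. Dll4, the Delta-like ligand of endothelium, stood at -0.52 ± 0.28 (adjusted p = 0.233), and the endothelial receptor Notch4 at 0.02 ± 0.31 (adjusted p = 0.976).

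Of 7 measured cleavage genes 2 rose. The receptor-cutting proteases Adam10 and Adam17 rose by 0.60 ± 0.14 and 0.70 ± 0.14 (adjusted p = 0.0211 and 0.00986). Adam17 had signals of 1328, 1212 and 1469 with tamoxifen overload and 1338 and 1171 with vehicle overload, against 807 (tamoxifen) and 701 (vehicle) with sham surgery, and its groups were well apart. Both lost their call with median centring (0.31 and 0.40), without vehicle overload replicate 2 (0.59 and 0.69) and without the tamoxifen sham array (0.57 and 0.73), and Adam10 also without the vehicle sham array (0.64).

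Of 7 measured genes of the nuclear complex 1 fell. Snw1, a splicing and transcription cofactor that binds this complex, fell by 0.46 on the log2 scale (SE 0.13, adjusted p = 0.037). Rbpj, the DNA-binding partner of all Notch receptors, stood at -0.15 ± 0.13 (adjusted p = 0.472). Its signals were 1789, 1803 and 2175 with tamoxifen overload and 1636 and 1525 with vehicle overload, against 1797 (tamoxifen) and 1850 (vehicle) with sham surgery, so its groups overlapped. Of 4 measured corepressor genes 1 fell, the Groucho family gene Tle1, by 0.63 on the log2 scale (SE 0.16, adjusted p = 0.0272). Snw1 kept its call in 7 of 17 alternatives and Tle1 in 11 of 17. Snw1 lost it without either vehicle overload array (both -0.46), tamoxifen overload replicate 3 (-0.46) or either sham array (tamoxifen -0.52, vehicle -0.40). Tle1 lost it without vehicle overload replicate 1 (-0.62) or 2 (-0.69) or the tamoxifen sham array (-0.29), which held the highest Tle1 signal of all arrays (916, against 588 on the vehicle sham array).

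Of 8 further regulators 1 rose. Dtx4, a Deltex family ubiquitin ligase, had signals of 687, 838 and 929 with tamoxifen overload and 896 and 897 with vehicle overload, against 263 (tamoxifen) and 225 (vehicle) with sham surgery. The groups were far apart, and the rise was 1.74 ± 0.18, or 3.33-fold (adjusted p = 0.000626). Of 4 further Hes and Hey genes 1 rose, Hes6, which encodes a relative that counteracts Hes1 and promotes myoblast differentiation. It had signals of 577, 576 and 528 with tamoxifen overload and 447 and 885 with vehicle overload, against 170 (tamoxifen) and 204 (vehicle) with sham surgery. It rose by 1.87 ± 0.23 (adjusted p = 0.00129), the opposite direction to Hes1. The brightest probe sets of Hes6 and Dlk1, like that of Notch3, carry suffixes that mark probes which may match related transcripts. Hey2 was above background on 1 of 7 arrays (0.03 ± 0.64, adjusted p = 0.979). None of the 6 receptor-modifying enzymes and 4 ligand ubiquitin ligases were called.

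Dlk1, Dtx4 and Hes6 kept their call in 15 of 17 alternatives each, those without the intensity trend excepted, with values of 1.47 to 2.31, 1.45 to 1.91 and 1.46 to 1.94. They were also called within both treatments: Dlk1 by 1.88 with tamoxifen and 2.12 with vehicle, Dtx4 by 1.56 and 1.91, and Hes6 by 1.88 and 1.87. Between tamoxifen and vehicle in overload 0 of the 46 genes were called, and 3 had an unadjusted p under 0.05.

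**Figure D5:**
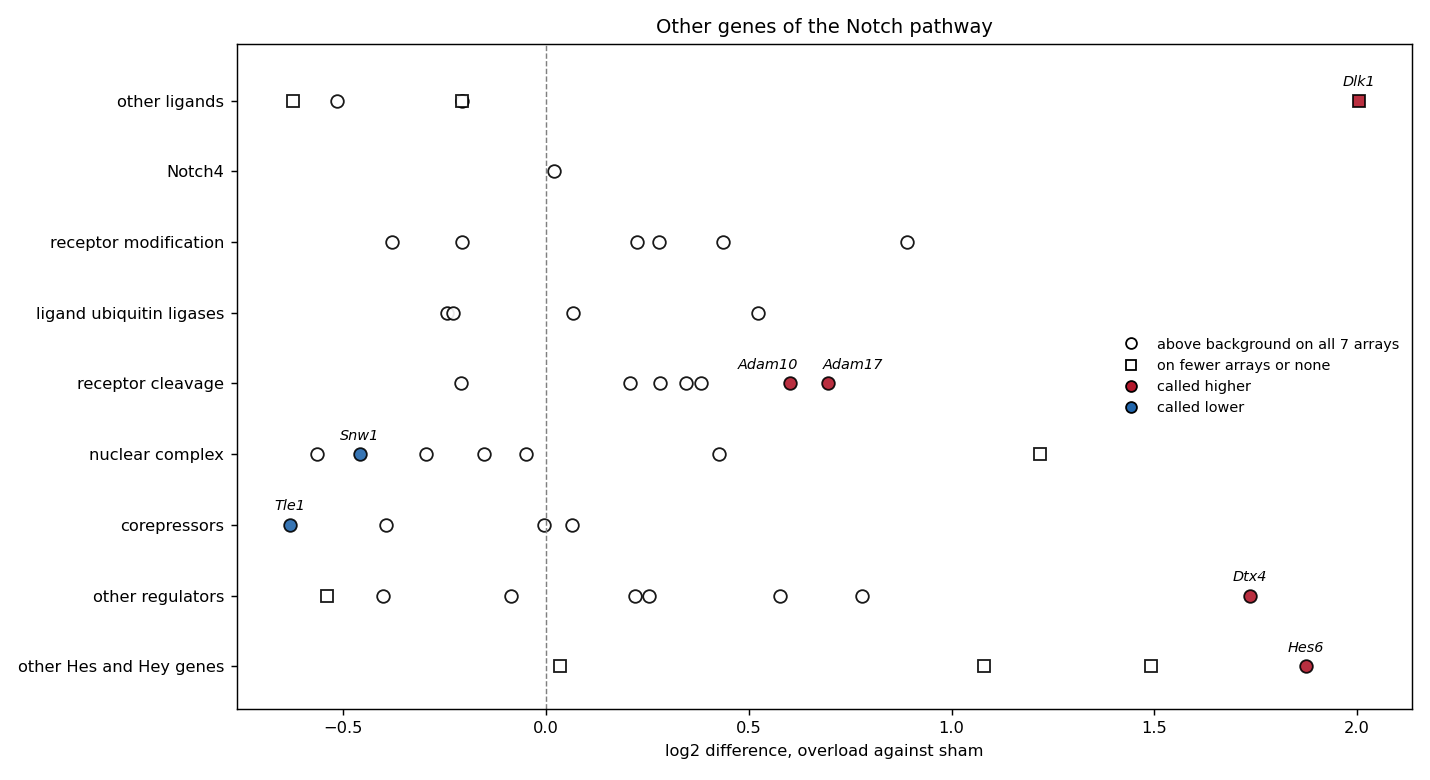
Log2 difference of overload against sham for the 46 other measured genes of the pathway, by role. Red marks genes called higher (5), blue genes called lower (2), and squares genes not above background on all 7 arrays. Dlk1, Hes6 and Dtx4 have the largest values, and the next largest are uncalled squares.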

How the data were processed

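Plantaris total RNA was measured on 7 Affymetrix mouse 430 2.0 arrays, 1 per sample, per the series' design text. The labels name whole-transcript labelling kits, which are made for another type of array; which labelling was used, and its effect on the signals, is not settled. The authors deposited linear intensities, scaled so that the mean of each array, without the lowest and highest 2% of probe sets, is 500.0. The submitters' processing notes name Partek, with no version or role, and how probes were summarised was not given. Scaling of this kind cannot show a change in total RNA.

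From these, log2(intensity + 1) was computed, 64 control probe sets were left out, and each of 18193 genes was represented by its brightest single-symbol probe set (34741 of 34945 matched RefSeq by Entrez identifier). A model with the 4 group means and sex was fitted to all genes with limma 3.58.1 (under R 4.3.3), variances moderated along an intensity trend (2 residual and 5.95 prior degrees of freedom). Tests were two-sided, with Benjamini-Hochberg adjustment over all genes (over all probe sets where stated). SE is the moderated standard error. No 2 arrays held the same values. The procedure was run on simulated data with independent normal noise of the fitted spread. Such data meet the model's assumptions by design and cannot check them. Python 3.11.15 with matplotlib 3.10.9 drew the figures. The members and lists were chosen with earlier results of these data known. Named were all members, pathway genes called in overload against sham or in tamoxifen against vehicle in overload, and Notch4, Dll4, Rbpj, Hey2, Hes6, Pax7, Pecam1, Cdh5, Pdgfrb, Rgs5, Myh11 and Ckm, with the 3 genes nearest in profile to the member of largest overload difference. Nrarp and the fringe genes were named outside this rule, after their values were seen. Alternatives changed the model (without sex, additive, without the intensity trend, ordinary linear), the arrays (males, overload groups, each array left out in turn), the scaling (quantile normalization, centring on medians), the pseudocount (16), the filter (dim genes removed) and the probe sets (averaged per gene, or each tested).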

Additional observations from a re-analysis of the deposited data

Results flagged for a closer look

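Jag2 and Hey1 were picked out because overload moved every array one way with tamoxifen and the opposite way with vehicle. This was looked for among the members only, by their brightest probe sets. How many of all genes show it was not counted, so the flags have no share over all genes beside them. Jag2 had signals of 564, 336 and 513 on the tamoxifen overload arrays, against 766 on the tamoxifen sham array, and 655 and 759 on the vehicle overload arrays, against 527 on the vehicle sham array. Its interaction was -1.15 ± 0.45 (log2, SE), with an unadjusted p of 0.0343 and an adjusted p of 0.841 in limma's test over all genes. Hey1 had 200, 295 and 239 on the tamoxifen overload arrays, against 165 on the tamoxifen sham array, and 189 and 208 on the vehicle overload arrays, against 226 on the vehicle sham array. Its interaction was 0.729 ± 0.48 (adjusted p = 0.979). Neither passed, and each rests on single sham arrays that themselves differed (tamoxifen over vehicle 1.46 for Jag2 and 0.727 for Hey1). The second Jag2 probe set did not show the pattern: its arrays overlapped within both treatments, with an interaction of -0.09 ± 0.37. Groups of 3 arrays or fewer are too small for a check of single arrays that stand apart.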

How the results depend on the processing

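For overload against sham the count of members called was 3, and it came to 1 on male arrays alone and to 0 without the intensity trend and with an ordinary linear model; leaving out 1 array gave 1 to 3. Within tamoxifen the count was 2, and it came to 1 with quantile normalization, with median centring and with probe sets averaged per gene, to 0 without the trend and with an ordinary linear model, and to 1 to 3 without 1 array. Within vehicle the count was 1, and it came to 2 with median centring and with dim genes left out, to 0 without the trend and with an ordinary linear model, and to 0 to 2 without 1 array. Of the 19 probe sets 4 were called, and 2 with quantile normalization or median centring, 1 on male arrays alone, 0 without the trend or by an ordinary linear fit, and 1 to 3 without 1 array. Of the 46 other pathway genes 7 were called, 14 without the sex term, 0 without the trend or by an ordinary linear fit, and 3 to 12 without 1 array (3 without vehicle overload replicate 2 or the tamoxifen sham array, 12 without tamoxifen overload replicate 1). The 0 members called for tamoxifen against vehicle in overload, for the interaction and for sex came out as 0 in every alternative that could be fitted. For single members, 38 of 940 values changed side of the threshold and none with a call changed sign. Uncalled values of Notch3, Dll1, Jag2, Hey1 and Heyl (overload against sham) and of Notch1 and Notch2 (tamoxifen against vehicle) did. So did some within treatments (Notch3, Heyl and Numb) and for the interaction (Notch1, Notch2 and Notch3). The sex difference changed sign for Notch1, Notch3, Dll1, Jag1, Jag2 and Hey1. Calls over all genes moved as well, so changed counts were not particular to the members. For overload against sham, 2678 genes higher and 1485 lower became 2034 and 1306 with quantile normalization. With median centring they became 1740 and 2710, and leaving out 1 array also changed them. The share of all probe sets called was not counted. The additive model gives no value within a treatment or for tamoxifen, and overload arrays alone give none for overload. Leaving out a sham array leaves overload against sham as the value within the other treatment, and leaving out either female array is nearly the same fit as male arrays alone, so these are not separate checks. No paired analysis was possible because the labels give no numbers shared between groups.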

Other observations

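Nrarp, a Notch target that feeds back to inhibit the pathway, was looked at after its values were seen. It had signals of 583, 785 and 688 on the tamoxifen overload arrays and 499.6 and 446 on the vehicle overload arrays, against 321 (tamoxifen) and 428 (vehicle) on the sham arrays. Within tamoxifen it rose by 1.06 ± 0.25 (log2, SE; adjusted p = 0.027, limma), a call lost without tamoxifen overload replicate 2 (0.88, adjusted p = 0.0581) and with median centring (0.78). Within vehicle the difference was 0.10 ± 0.27 (adjusted p = 0.879), and over both treatments 0.58 ± 0.19 (adjusted p = 0.0663). The interaction, which compares the treatments directly, was 0.96 ± 0.35 (adjusted p = 0.806) and did not pass. Of the fringe enzymes, which add sugars to Notch receptors, Lfng had 228, 489 and 359 with tamoxifen overload and 291 and 256 with vehicle overload, against 153 (tamoxifen) and 163 (vehicle) with sham surgery. All of its overload arrays lay above the sham arrays, as for 23.1% of all genes, and its difference of 0.89 ± 0.33 did not pass (adjusted p = 0.0946). Rfng went the other way, with all overload arrays below the sham arrays, as for 18.3% of all genes (-0.38 ± 0.18, adjusted p = 0.176). Mfng overlapped (-0.21 ± 0.30, adjusted p = 0.685).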
